A study of Mus musculus with 6 samples.

Results

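The NF-kB pathway genes described here are 32 genes chosen by name, namely the NF-kB subunits, the IkB proteins that bind them, the IKK kinases and their activators, the TRAF and cIAP ubiquitin ligases, and the deubiquitinases CYLD and A20 with their partners. All 32 were found among the 23366 gene symbols of the count table and all 32 passed the filter on low counts, which left 11716 genes in the test. The libraries, 3 from liver and 3 from spleen, hold RNA of regulatory T (Treg) cells, purified as CD4+GFP+ cells with a cell sorter. All came from mice 12 days old with the Foxp3GFP knock-in, a reporter that makes Foxp3-expressing cells fluoresce green, and the labels name no treatment. Whether each library is a separate animal or a pool is not stated. Liver 3 and spleen 3 held sex-linked transcripts of both sexes, so neither was made from a single animal. The spread behind the p-values is that of the libraries and includes their differences in sex. The libraries of a tissue differed in the sex-linked transcripts Xist and Ddx3y, so they are not repeats of the same RNA sample. How much of the spread is technical is not known. The study's title concerns Treg accumulation in the neonatal liver, and the comparison here is of liver with spleen Treg cells of that age.

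NF-kB is a family of dimeric transcription factors that IkB proteins hold in the cytoplasm. In the canonical route, T cell receptor, TNF receptor or Toll-like receptor signals activate the IKK complex, IkB is phosphorylated and destroyed, and dimers of RelA, c-Rel and the product of Nfkb1 enter the nucleus. In the alternative route the kinase NIK, encoded by Map3k14, drives processing of the Nfkb2 product and its entry with RelB. The pathway switches on its own inhibitors, among them IkB-alpha and the ubiquitin editor A20. In Treg cells c-Rel is known for its part in the induction of Foxp3 and RelA for the maintenance of activated Treg cells.

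Of the 32 members, 4 were higher in liver (Tnfaip3, Ripk1, Tab2 and Cyld) and 4 were lower in liver (Rel, Tnip2, Ikbke and Map3k14), while 24 did not pass edgeR's quasi-likelihood test at an adjusted p of 0.05. That is 25.0% of the members, against 16.2% of all genes tested and 17.9% of the 7460 tested genes at least as abundant as the least abundant member. In single directions, 9.28% of all genes tested were higher in liver and 6.90% lower. The median log2 fold change of liver minus spleen was -0.054 over the members and -0.0051 over all genes tested. Liver and spleen libraries had no overlap for 9 members, of which 5 were higher in liver, where 32.9% of all genes tested had no overlap. With upper-quartile scaling the member counts were 2 higher and 5 lower, where 16.8% of all genes tested were called. Without the shallow library spleen 1 they were 2 higher and 4 lower (18.5% of all genes tested called). Without liver 1 they were 1 and 3 (12.3%), without liver 2 they were 1 and 3 (11.8%), and without liver 3 they were 4 and 2 (13.7%). Without spleen 2 they were 3 and 2 (10.1%), and without spleen 3 they were 2 and 3 (11.8%). The share of all genes called thus also changed with the setting.

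**Figure D1:**
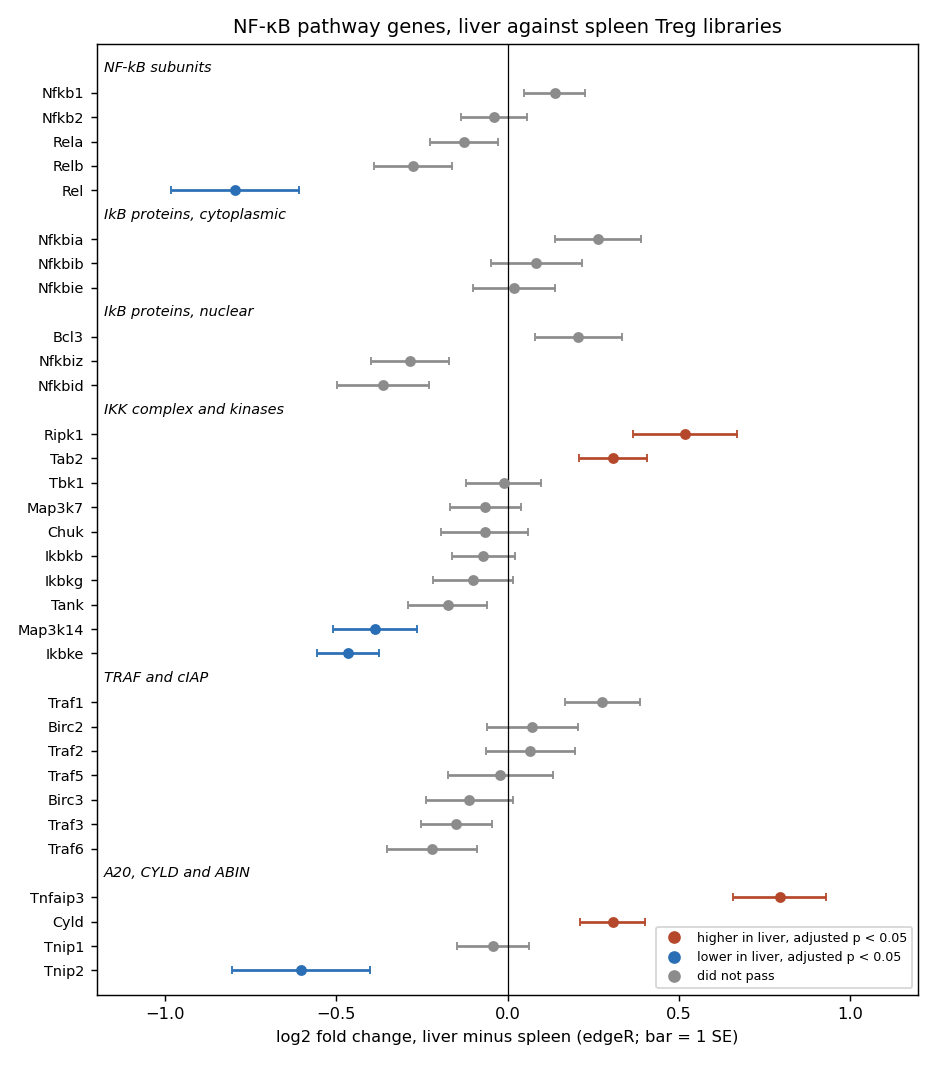
Log2 fold change of liver minus spleen for the 32 members, grouped by role, with bars of 1 SE from the edgeR fit over 3 liver and 3 spleen libraries. Red marks the 4 genes higher in liver, blue the 4 lower in liver and grey the 24 that did not pass.

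Libraries differed in depth. Counts in genes were 8437055 to 10951720 in the liver libraries and 11408960 and 11358446 in spleen 2 and spleen 3, but 1199410 in spleen 1, where the members held between 28 counts (Tnip2) and 641 counts (Ikbke). The first principal component, with 55.5% of the variance, set spleen 1 at 79.0 apart from spleen 2 and spleen 3 (9.53 and 7.72) and from the liver libraries (-34.8 to -29.1). Xist alone, Ddx3y alone or both were above 10 CPM in 1 liver and 1 spleen library each. CPM are counts scaled to the same TMM-adjusted library total of 1e+06. Xist alone was above it in liver 1 and spleen 1, Ddx3y alone in liver 2 and spleen 2, and both in liver 3 and spleen 3. A fit with a term for this pattern thus also compares liver with spleen within these numbers, a pairing that the labels do not give. Xist and Ddx3y were at 462 and 53.3 CPM in liver 3 and at 327 and 76.8 CPM in spleen 3. Treg markers summed to 4391 to 4709 CPM in liver and 3873 to 4344 CPM in spleen, with Foxp3 and Ikzf2 the most abundant and none at 0. These sums did not overlap between the tissues. Of the 7 Treg genes, Ctla4 and Ikzf2 were higher in liver (log2 fold changes 0.89 and 0.35), Il2ra was lower (-0.60) and 4 did not pass. Transcripts of genes used as markers of other cells were present too. Whether other cells or the Treg cells made them was not tested. Fewer cells of a type also cannot be told apart from less RNA per cell. Summed markers were lower in liver for B cells (141 to 167 against 231 to 337 CPM, led by Cd79a and Cd79b), macrophages (73.5 to 83.3 against 138 to 216 CPM, led by Lyz2 and Cd68), granulocytes (287 to 317 against 502 to 850 CPM, led by Ngp and Ltf) and erythroid cells (6.05 to 10.7 against 150 to 237 CPM, led by Beta-s and Slc4a1). They were higher in liver for NK and CD8 T cells (103 to 132 against 46.2 to 55.9 CPM, led by Nkg7 and Prf1), where of 9 tested genes 5 rose (Nkg7, Klrb1c, Klrd1, Gzma and Prf1), Eomes fell (0.361 to 1.56 CPM in liver and 8.83 to 10.3 CPM in spleen) and Cd8a, Cd8b1 and Klrk1 did not pass. Of 12 granulocyte genes 9 fell, while Retnlg, Csf3r and Cxcr2 did not pass and had positive log2 fold changes (0.54, 0.72 and 1.08). Of 9 B cell genes 5 fell and 4 did not pass, among them Ebf1 with a positive log2 fold change (0.35). Dendritic cell markers (7.59 to 11.6 against 4.30 to 10.6 CPM, led by Itgax and Siglech) and hepatocyte and stromal markers (198 to 235 against 225 to 256 CPM, led by Pecam1 and Col1a1) overlapped between the tissues in their sums. Pecam1 alone made up 183 to 250 CPM of the latter. The hepatocyte gene Alb was higher in liver, at 2.20 to 7.32 CPM against 0 counts in each spleen library, and Ttr, too low to be tested, also had counts in liver libraries only. Of these lists Mrc1 and Col3a1 were at 0 in the liver libraries, and Dcn and 4 globin symbols (Hba-a1, Hba-a2, Hbb-b1, Hbb-b2) at 0 in all libraries. Beta-s, also a globin symbol, was at 62.0 to 129 CPM in spleen, so these zeros do not show that globin RNA was absent.

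The promoters of 4 members are shown because NF-kB is known to act on the genes of its own pathway: Rel and Ikbke, lower in liver, Tnfaip3, higher in liver, and Nfkbia, the most abundant member per kilobase. Each line is the 250 bases before a RefSeq start on GRCm38.p6, 5′ to 3′ on the strand of the gene, with matches of the κB consensus in capitals. The consensus is a motif of 10 bases, GGGRNNYYCC, where R is A or G, Y is C or T and N is any base. It was searched on either strand with overlapping matches kept. Runs close to it that do not match exactly stayed in lower case.
Rel, chr11:23770970-23771219, minus strand: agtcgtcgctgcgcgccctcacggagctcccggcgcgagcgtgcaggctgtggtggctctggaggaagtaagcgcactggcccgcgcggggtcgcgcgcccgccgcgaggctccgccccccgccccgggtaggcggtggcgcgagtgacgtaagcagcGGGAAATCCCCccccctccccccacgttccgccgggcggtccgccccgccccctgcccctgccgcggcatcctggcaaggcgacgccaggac
Nfkbia, chr12:55492648-55492897, minus strand: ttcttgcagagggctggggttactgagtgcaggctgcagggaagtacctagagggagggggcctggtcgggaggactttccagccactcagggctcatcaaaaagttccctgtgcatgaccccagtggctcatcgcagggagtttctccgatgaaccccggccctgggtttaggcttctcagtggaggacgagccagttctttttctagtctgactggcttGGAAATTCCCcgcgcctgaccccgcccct
Tnfaip3, chr10:19015411-19015660, minus strand: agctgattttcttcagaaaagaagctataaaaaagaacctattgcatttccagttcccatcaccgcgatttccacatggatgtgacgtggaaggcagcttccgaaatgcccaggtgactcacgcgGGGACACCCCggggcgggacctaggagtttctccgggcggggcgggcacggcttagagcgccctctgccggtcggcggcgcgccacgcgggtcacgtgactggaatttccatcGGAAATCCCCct
Ikbke, chr1:131279564-131279813, minus strand: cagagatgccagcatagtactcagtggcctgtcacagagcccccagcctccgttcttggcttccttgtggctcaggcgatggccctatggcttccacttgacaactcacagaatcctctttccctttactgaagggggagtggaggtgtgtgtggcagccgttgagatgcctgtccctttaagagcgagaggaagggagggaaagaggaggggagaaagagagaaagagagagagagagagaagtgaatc

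The Rel window held 2 overlapping matches, starting 92 and 91 bases before the start, and Nfkbia held 1, at 29 bases. The Tnfaip3 window held matches at 125 and 12 bases, while a second RefSeq start of Tnfaip3 had none in its window, and Ikbke had none. RefSeq windows were found for 28 of the 32 members. Of these, 11 genes held a match (Nfkb2, Rel, Nfkbia, Nfkbie, Nfkbid, Tank, Map3k7, Traf3, Tnfaip3, Tnip1 and Cyld), which is 39.3% of them, against 8.23% of all 27025 genes with a window. Among the members past the test, Rel, lower in liver, and Tnfaip3 and Cyld, higher in liver, held one. A match is only a run of letters, and binding was not measured.

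Among the 5 NF-kB subunit genes, Rel was lower in liver and the other 4 did not pass. Rel encodes c-Rel, the subunit most tied to lymphocyte activation. Its level was 56.6, 41.7 and 35.7 CPM in liver and 110, 65.7 and 70.4 CPM in spleen. All 3 liver libraries lay below all 3 spleen libraries, and the shallow library spleen 1 was the highest. The means were 44.7 ± 10.8 and 82.1 ± 24.4 CPM (SD, n = 3 each). The log2 fold change was -0.80 ± 0.19 (edgeR adjusted p = 0.00592), where the error of a fold change is its SE throughout. Without spleen 1 the log2 fold change was -0.61 (edgeR adjusted p = 0.0136).

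Nfkb1, whose product is the precursor of the usual partner of RelA and c-Rel, was the most abundant subunit per kilobase of transcript, at 125 CPM per kilobase over both tissues. It stood at 538, 541 and 539 CPM in liver and at 491, 504 and 476 CPM in spleen. The liver libraries were all above the spleen libraries, but the difference of 0.14 ± 0.09 on the log2 scale did not pass (edgeR adjusted p = 0.342). Rela, the main activating subunit, had a log2 fold change of -0.13 and Nfkb2, the precursor of the alternative route, one of -0.041, and the libraries of the tissues overlapped for these genes. Relb, the partner of the processed Nfkb2 product, was at -0.28 ± 0.11 with an unadjusted p of 0.0264 and an edgeR adjusted p of 0.116. Over the summed CPM per kilobase of the 5 genes, Rel made up 2.33%, 1.84% and 1.65% in liver and 4.71%, 2.72% and 3.07% in spleen. The share of Nfkb1 was 42.9% ± 2.53 in liver and 37.8% ± 0.219 in spleen (SD, n = 3 each), and that of Relb 12.8% to 14.5% against 15.2% to 17.0%. For these 3 genes the shares of the tissues did not overlap, while those of Nfkb2 and Rela did.

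**Figure D2:**
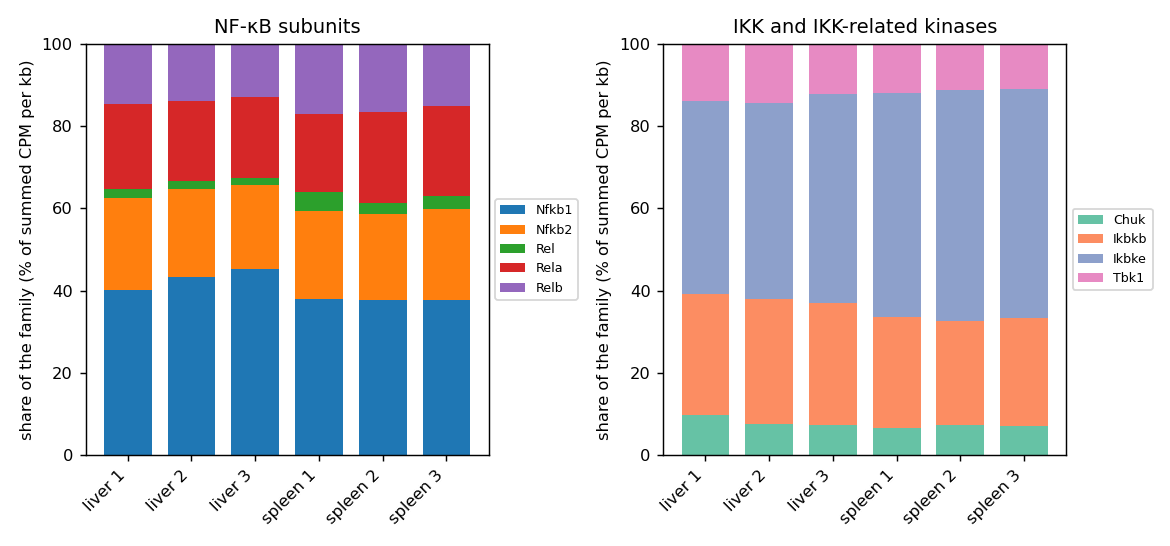
Share of each gene in the summed CPM per kilobase of its family, in percent, for each of the 6 libraries; left, the 5 NF-kB subunits, and right, the 4 IKK and IKK-related kinases. The green band of Rel is narrower in the liver libraries (1.65% to 2.33%) than in the spleen libraries (2.72% to 4.71%), and the band of Ikbke is narrower in liver as well.

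None of the 6 IkB genes passed edgeR's test; 3 had an unadjusted p under 0.05, 3 (Nfkbia, Nfkbid and Nfkbiz) passed with limma-voom and 0 with DESeq2. Nfkbia encodes IkB-alpha, the inhibitor that NF-kB resynthesizes after each round of activation, and at 321 CPM per kilobase over both tissues it was the most abundant of the 32 members. It was at 654, 531 and 470 CPM in liver and 522, 470 and 394 CPM in spleen. The ranges overlapped, with liver 1 above the rest, and the log2 fold change of 0.27 ± 0.13 had an unadjusted p of 0.0493 and an edgeR adjusted p of 0.174. The other cytoplasmic inhibitors, Nfkbib and Nfkbie, had log2 fold changes of 0.084 and 0.018. Nfkbia took 83.0% to 87.4% of the summed CPM per kilobase of these 3 genes in liver and 81.1% to 86.1% in spleen.

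The nuclear IkB proteins act on NF-kB already bound to DNA. Bcl3, the most abundant of the 3 per kilobase at 50.5, encodes a partner of NF-kB homodimers. It was at 95.8, 118 and 90.0 CPM in liver and 70.6, 93.5 and 91.7 CPM in spleen, overlapping ranges with a log2 fold change of 0.21 ± 0.13. Nfkbid encodes IkBNS, known for a part in Treg development with c-Rel. It had the smallest p of the members that did not pass, at 82.0, 66.1 and 82.1 CPM in liver and 73.2, 109 and 103 CPM in spleen. Spleen 1 lay within the liver range. Its log2 fold change was -0.36 ± 0.13 (edgeR adjusted p = 0.0751), and without spleen 1 it was -0.47 (edgeR adjusted p = 0.00914). Nfkbiz, which encodes IkB-zeta, was at -0.29 ± 0.11 (edgeR adjusted p = 0.101), and it passed without liver 1 (-0.43, edgeR adjusted p = 0.0188) and with the term for the sex-linked transcripts (-0.32, edgeR adjusted p = 0.0342).

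Of the 10 genes of the IKK complex and the kinases and adaptors around it, 2 were higher in liver, 2 were lower and 6 did not pass. The 3 components of the IKK complex itself did not pass. Chuk (IKK-alpha), Ikbkb (IKK-beta) and Ikbkg (the scaffold NEMO) had log2 fold changes of -0.067, -0.071 and -0.10. Ikbke encodes the IKK-related kinase IKK-epsilon, which acts with TBK1 in innate and interferon signalling. It was the most abundant gene of this group per kilobase, at 144 CPM per kilobase. Ikbke was at 378, 400 and 401 CPM in liver and 552, 535 and 544 CPM in spleen. The libraries of each tissue lay close together and far from those of the other. The log2 fold change was -0.47 ± 0.09 (edgeR adjusted p = 0.00128), or 1.38-fold higher in spleen. Tbk1, its close relative, was at -0.012 ± 0.11 and its adaptor gene Tank at -0.17 ± 0.12, and neither passed. Among the 4 kinases Chuk, Ikbkb, Ikbke and Tbk1, the share of Ikbke in summed CPM per kilobase was 47.0% to 50.7% in liver and 54.5% to 56.1% in spleen, and that of Ikbkb 29.6% to 30.5% in liver and 25.2% to 27.0% in spleen.

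Map3k14, the gene of NIK, was lower in liver, at 69.7, 79.8 and 61.1 CPM against 87.8, 99.7 and 86.4 CPM in spleen. The tissues did not overlap, though liver 2 came near spleen 3. The log2 fold change was -0.39 ± 0.12 (edgeR adjusted p = 0.0388). Leaving out single libraries ended the call in 4 cases, without liver 1 (edgeR adjusted p = 0.102), liver 3 (0.111), spleen 2 (0.249) or spleen 3 (0.0618). Traf2, Traf3 and Birc2, whose products hold NIK at a low level in resting cells, did not pass.

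Ripk1 encodes a kinase and scaffold that joins the TNF receptor complex. It was at 82.7, 81.1 and 69.9 CPM in liver and 33.6, 59.7 and 59.0 CPM in spleen, where the value of spleen 1 rests on 39 counts. All liver libraries were above all spleen libraries, and the log2 fold change was 0.52 ± 0.15 (edgeR adjusted p = 0.0261). Without spleen 1 it was 0.39 (edgeR adjusted p = 0.0263), and the call was lost without liver 1 (0.48, edgeR adjusted p = 0.0879) or liver 2 (0.50, edgeR adjusted p = 0.0931). Tab2, which links ubiquitin chains to the kinase TAK1, was at 274, 282 and 234 CPM in liver and 197, 229 and 208 CPM in spleen. Liver 3 was only just above spleen 2. Its log2 fold change was 0.31 ± 0.10 (edgeR adjusted p = 0.0438). The call was lost without liver 1 (edgeR adjusted p = 0.149), liver 2 (0.184), spleen 1 (0.0807), spleen 2 (0.0610) or spleen 3 (0.144). Tab2 also failed to pass with DESeq2 size factors, with upper-quartile scaling, with the DESeq2 Wald test and with all libraries at equal depth. Map3k7, which encodes TAK1, was at -0.065 ± 0.10 and did not pass.

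None of the 7 TRAF and cIAP genes passed edgeR's test, 0 passed with DESeq2 or limma-voom, 1 (Traf1) passed with the term for the sex-linked transcripts, and 1 (Traf1) had an unadjusted p under 0.05. Birc3, one of the paired cIAP ubiquitin ligases, was the most abundant of them per kilobase, at 68.6. It was at 188, 188 and 145 CPM in liver and 232, 179 and 166 CPM in spleen, ranges that overlapped, with a log2 fold change of -0.11 ± 0.13. Traf1, an adaptor induced by NF-kB, had the smallest p of this group, at 135, 145 and 171 CPM in liver and 117, 116 and 136 CPM in spleen. Spleen 3 lay just above liver 1. The log2 fold change was 0.28 ± 0.11 (edgeR adjusted p = 0.0997), and with the term for the sex-linked transcripts Traf1 passed (0.29, edgeR adjusted p = 0.0481). The remaining genes, Traf2, Traf3, Traf5, Traf6 and Birc2, had log2 fold changes between -0.22 and 0.073.

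The deubiquitinase group held the largest increase among the members. Tnfaip3 encodes A20, which edits ubiquitin on RIPK1 and its partners and ends NF-kB signalling. It was at 862, 600 and 562 CPM in liver and 417, 400 and 354 CPM in spleen. Each liver library was above each spleen library, and liver 1 was the highest. The means were 674 ± 163 and 390 ± 32.7 CPM (SD, n = 3 each). The log2 fold change was 0.79 ± 0.14 (edgeR adjusted p = 0.000440), or 1.73-fold. Without liver 1 the log2 fold change was 0.58 (edgeR adjusted p = 0.00292). Transcripts of immediate early and handling genes summed to 3227 CPM in liver 1, led by Fos and Fosb, against 2173 to 2447 CPM in the other libraries, so this list and Tnfaip3 were both highest in liver 1. Of its 9 tested genes, Dusp1 was higher in liver, Egr1 was lower and 7 did not pass.

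Cyld, a deubiquitinase that removes linear and other chains from NEMO and TRAF proteins, was at 254, 245 and 244 CPM in liver and 177, 220 and 196 CPM in spleen. The liver libraries varied less than the spleen libraries and lay above them. The log2 fold change was 0.31 ± 0.10 (edgeR adjusted p = 0.0366), and the call was lost without liver 1 (edgeR adjusted p = 0.121), liver 2 (0.0922), spleen 1 (0.0730) or spleen 3 (0.123). Cyld also failed to pass with upper-quartile scaling. Tnip2, an A20-binding protein gene, was the least abundant member by CPM, at 16.1, 14.1 and 13.2 CPM in liver and 24.1, 24.6 and 18.5 CPM in spleen. The tissues did not overlap, with a log2 fold change of -0.60 ± 0.20 (edgeR adjusted p = 0.0495). The call was lost without liver 1 (edgeR adjusted p = 0.0703), liver 2 (0.148), liver 3 (0.125), spleen 1 (0.0514) or spleen 2 (0.296). Tnip2 also failed to pass with the DESeq2 Wald test and with all libraries at equal depth. Its better expressed relative Tnip1 was at -0.043 ± 0.10 and did not pass.

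**Figure D3:**
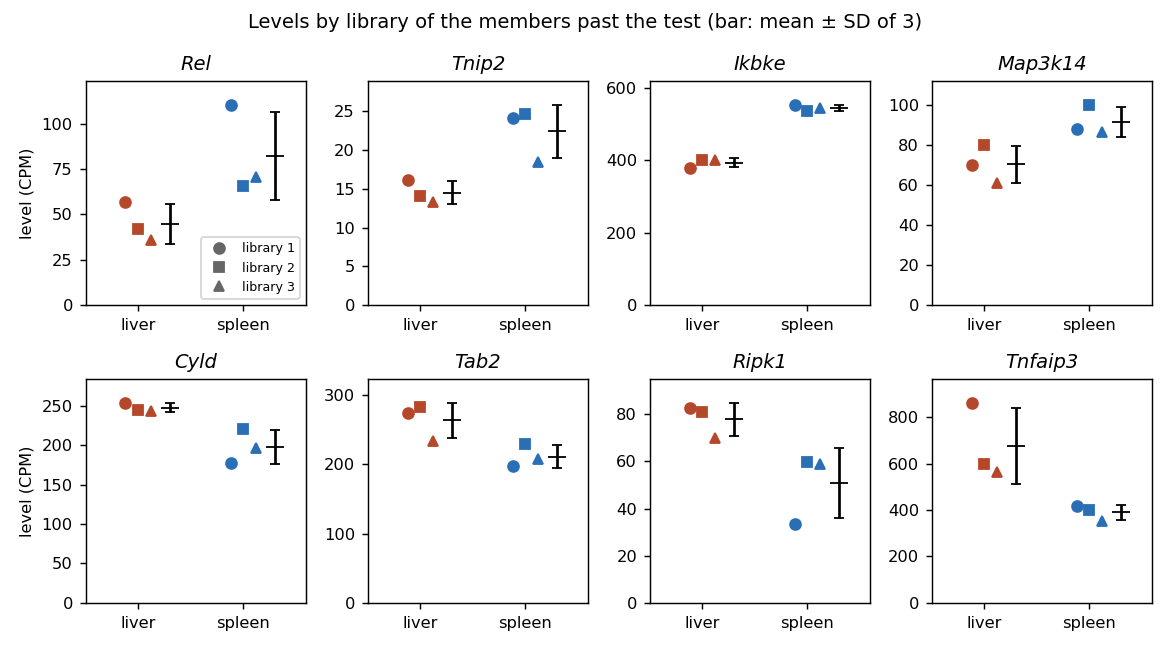
Level in CPM of the 8 members past the test in each library (circle, square and triangle for libraries 1, 2 and 3, numbered in accession order), with the mean and SD of 3 libraries in black. Rel, Tnip2, Ikbke and Map3k14 lie lower in liver (red) than in spleen (blue), and Cyld, Tab2, Ripk1 and Tnfaip3 higher, with no overlap between tissues.

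Of the 8 members past the test, Rel, Ikbke and Tnfaip3 passed under all 16 other settings tried and none of the 8 changed direction in any. Over these settings the log2 fold change ranged from -1.12 to -0.61 for Rel, from -0.53 to -0.44 for Ikbke and from 0.58 to 0.91 for Tnfaip3. With a term for the sex-linked transcripts all 8 passed, and with Traf1 and Nfkbiz the counts were 5 higher and 5 lower. In that fit 16.8% of all genes tested were called. The members lower in liver shared their direction with the summed B cell, macrophage, granulocyte and erythroid markers. The members higher in liver shared theirs with the summed NK and CD8 T cell markers, with Alb and also with the summed Treg markers. The part of other cells in these differences was not tested. With the marker genes themselves left out before scaling, the log2 fold changes of Rel, Ikbke and Tnfaip3 were -0.80, -0.47 and 0.79. That setting leaves any RNA of other cells in the counts of these genes, so it cannot test the part of such cells.

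**Figure D4:**
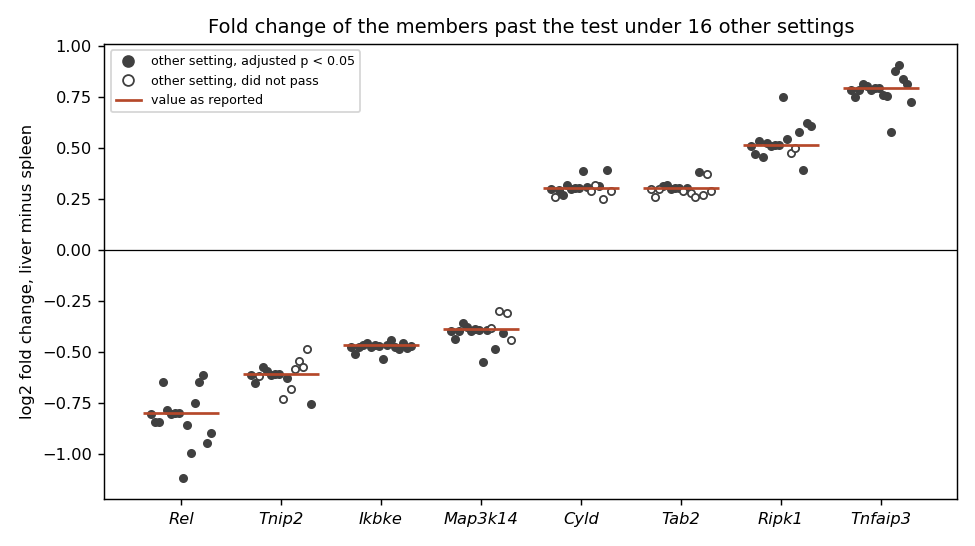
Log2 fold change of liver minus spleen for the 8 members past the test under 16 other settings (points, left to right in the order of the settings; filled where the adjusted p was under 0.05) and as reported (red line). Rel, Ikbke and Tnfaip3 have filled points only, and no point of the 8 genes crosses 0.

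The rest of the pathway was described with a list of 58 other tested genes. Of them 5 rose in liver, 5 fell and 48 did not pass, so that 17.2% were called against 16.2% of all genes tested, with a median log2 fold change of 0.080. In the relay from the T cell receptor to IKK, Prkcq, the gene of protein kinase C-theta, was lower in liver (-0.33 ± 0.09, edgeR adjusted p = 0.0181). Malt1, which encodes a protease of this relay, was higher (0.28 ± 0.09, edgeR adjusted p = 0.0479). Among 11 TNF receptor family genes, Tnfrsf1b, which encodes TNF receptor 2, was higher in liver (0.76 ± 0.09, edgeR adjusted p = 1.91e-05) and Tnfrsf25, the receptor for TL1A, lower (-0.72 ± 0.13, edgeR adjusted p = 0.000851).

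Among 34 other adaptors, kinases and inhibitors, 3 rose in liver, 2 fell and 29 stayed short of the threshold. Map3k8, the kinase TPL2 that is held by the Nfkb1 precursor, was lower, at 31.7, 27.1 and 26.7 CPM in liver and 49.1, 46.4 and 48.5 CPM in spleen (-0.75 ± 0.15, edgeR adjusted p = 0.00138). N4bp1, an inhibitor of NF-kB signalling, was higher (0.59 ± 0.14, edgeR adjusted p = 0.00516). So were Tifa (1.18 ± 0.29, edgeR adjusted p = 0.00948) and the TBK1-binding adaptor gene Tbkbp1 (1.64 ± 0.41, edgeR adjusted p = 0.00969), from 4.71 and 1.89 CPM in spleen. In spleen 1, 2 and 3 Tifa had 5, 52 and 63 counts and Tbkbp1 had 2, 16 and 30. Their fold changes thus rest on few counts in spleen. Irak1, a kinase of Toll-like and IL-1 receptor signalling, was the other gene lower in liver (-0.32 ± 0.10).

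Genes taught as NF-kB targets differed in opposite directions. The list was chosen with earlier results of these data known, so its share of called genes is a description and not a test. Of 38 tested, 12 rose in liver, 8 fell and 18 stayed short of the threshold, which is 52.6% called against 16.2% of all genes tested, with a median log2 fold change of 0.22. The chemokine gene Ccl5 was higher in liver (2.80 ± 0.17, edgeR adjusted p = 1.06e-08), and so were Icam1, Irf1, Irf8, Bcl2l1, Gadd45b, Cd44, Junb, Ccr7, Cd80, Ccl3 and Ccl4. Ccl5 is also expressed by NK and CD8 T cells, whose summed markers were higher in liver, and their part in its difference was not tested. Lta, the gene of lymphotoxin-alpha, averaged 50.9 ± 7.80 CPM in spleen against 13.1 ± 2.56 CPM in liver (SD over 3 libraries per tissue). Its log2 fold change was -2.01 ± 0.18 (edgeR adjusted p = 5.26e-07). Myc (-0.99 ± 0.11, edgeR adjusted p = 7.37e-06), Tnf, Il2ra, Irf4, Ccnd2, Cd83 and Vcam1 were lower in liver too. Vcam1, an adhesion molecule gene that is also on the macrophage list, was at 12.9 to 21.8 CPM in spleen and had 0 or 1 count in each liver library. Foxp3 and Il2ra of the target list are on the Treg marker list. The paralogs Bcl2a1a, Bcl2a1b and Bcl2a1d share sequence, and their counts are uncertain.

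**Figure D5:**
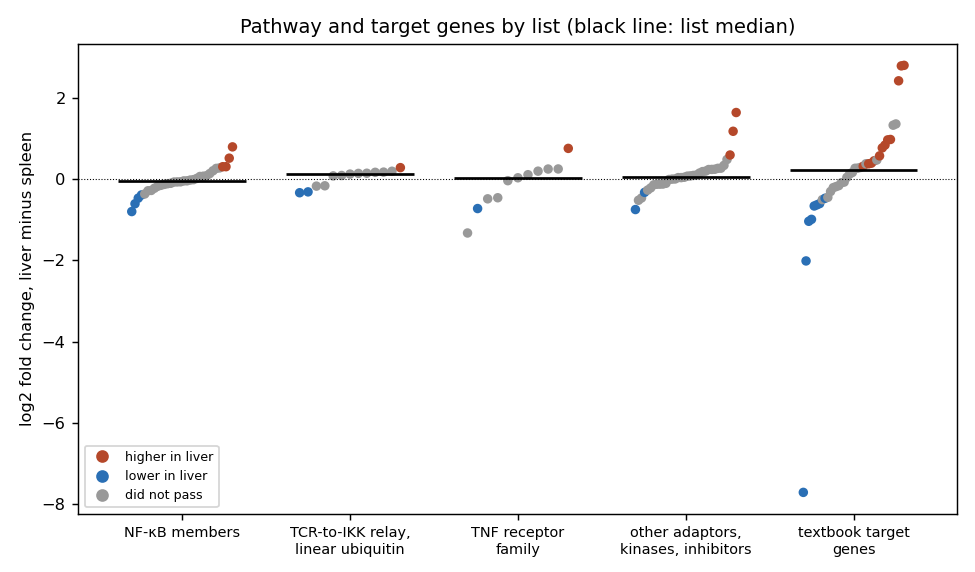
Log2 fold change of liver minus spleen for each tested gene of 5 lists, with the list median as a black line; red and blue mark genes higher and lower in liver. The list medians of the members and the other pathway genes are near 0, at -0.054 to 0.13, with single genes from -1.32 to 1.64. The target genes spread wider, up to 2.80 (Ccl5). The lowest point is Vcam1, with 0 or 1 count in each liver library, whose fitted value is no measure of size.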

How the data were processed

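Gene expression was measured in 3 liver and 3 spleen libraries. The authors deposited whole-number read counts for each gene symbol, unnormalized; the submitters' processing notes name HISAT2 2.1, HTSeq 0.11 and mm9. Annotation and strand setting were not given in the sources consulted, so overlapping genes cannot be told apart. The 5 HTSeq summary rows, 25.5% to 29.0% of a library, were left out. Libraries were numbered in accession order and none is paired by the labels; no library was a copy of another (lowest chi-square over degrees of freedom for a pair, 4.56).

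Counts were filtered with filterByExpr, scaled by TMM and tested for liver minus spleen in R 4.3.3 with edgeR 4.0.16 (quasi-likelihood F test, Benjamini-Hochberg over 11716 genes, threshold 0.05; biological coefficient of variation 0.129), and the script was tested on simulated data. Levels per kilobase use the longest APPRIS principal transcript of GENCODE vM21 (GRCm38), a later build, and are approximate. The limit that a count of 0 allows, 3 counts, equals 2.58 CPM in spleen 1 but 0.256 to 0.361 CPM in the rest (counting error only). Values in every library are given for members past the threshold, the member highest per kilobase in each role and the 2 members with the smallest p that did not pass; from the other lists the 4 smallest p among genes past the threshold are described, and 2 abundant markers per marker list. Other genes were named after their values were seen, and 1 gene that the rule names is not reported here. The members, lists and tests were chosen with earlier results of these data known. Alternatives used DESeq2 1.42.0, limma 3.58.1, other scalings and filters, equal depth, a term for sex-linked transcripts, removal of marker genes and each library left out in turn.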

Additional observations from a re-analysis of the deposited data

How the results depend on the processing

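Under 10 other settings and 6 fits without 1 library, none of the 8 members past the test changed direction and 3 (Rel, Ikbke and Tnfaip3) always passed. Of the 24 that did not pass, 20 never passed and 4 did in some setting (Nfkbia, Nfkbid, Nfkbiz and Traf1). Members higher in liver numbered 2 with upper-quartile scaling and 1 to 4 with a library left out, and members lower 2 to 4. Of all genes tested, 10.1% to 18.5% were called with a library left out. The share was 16.8% with upper-quartile scaling or the sex-linked term, 23.6% with limma-voom and 11.8% at equal depth. Other pathway genes higher numbered 8 with limma-voom, 2 at equal depth and 2 to 7 with a library left out, and those lower 8 with limma-voom and 2 to 5 with a library left out. Counts of target genes stayed within 1.5 times. The cause of these differences was not tested. Of members that did not pass, 10 changed sign near 0 (log2 fold changes). With limma-voom, Nfkbib was at -0.015, Tbk1 at 0.056, Traf2 at -0.049 and Birc3 at 0.015. With upper-quartile scaling Nfkbie was at -0.028; at equal depth Traf5 was at 0.047 and Birc2 at -0.053; with the sex-linked term Traf5 was at 0.044. With a library left out the ranges were -0.11 to 0.026 for Nfkb2, -0.023 to 0.080 for Nfkbie, -0.19 to 0.017 for Chuk, -0.088 to 0.074 for Tbk1, -0.039 to 0.17 for Traf2, -0.15 to 0.13 for Traf5, -0.031 to 0.22 for Birc2, -0.21 to 0.013 for Birc3 and -0.11 to 0.049 for Tnip1. The labels pair no libraries; the sex-linked pattern was shared by liver and spleen libraries of the same accession-order number, so its term acts as a block of those numbers, and with it 5 members were higher and 5 lower. With 1199410 counts, spleen 1 limits the precision of the less abundant members.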
